A study of Ovis aries with 32 samples.

Results

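The probes listed for the globin genes were followed on all 32 arrays of lamb heart. They are A_70_P051261 and A_70_P061046, which the array files name HBB, and A_70_P037481, which is listed as HBA1. Any other probe whose gene name starts with HBA or HBB was to be added, and none was found, so 3 of the 15008 probes on the array were members. HBB is 1 of the 985 gene symbols that can be named on the array. No probe of the files has a gene name that starts with HBA, and A_70_P037481 carries only the name of a cDNA fragment there. Its label HBA1 was traced through its values to the study's list of genes that differed in the left ventricle, so it was chosen by its measured difference between CORT and Control lambs there. That difference is therefore a description and was given no test.

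RNA was measured in the left ventricular free wall (LV) and the septum (IVS, the wall between the ventricles) of 14-day-old sheep lambs. The ewes of the CORT lambs had been infused overnight with cortisol, 0.5 mg/kg/day, from gestation day 115 until delivery, and the ewes of the Control lambs received none. The lambs themselves were untreated after birth, and each of the 4 groups held 8 arrays. A set of twins was born in each group, and the labels do not tie arrays to ewes. The paper counts 8 Control lambs, the twins included. The 8 Control arrays of a tissue, if each is a different lamb, therefore hold both twins of the same ewe. Some CORT arrays may share a ewe too. The p-values measure the spread between these samples and treat them as independent, although the treatment was given to the ewes.

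Hemoglobin carries oxygen in red blood cells as a tetramer of alpha and beta chains, each holding a heme group. The genes of the alpha chains (HBA) and the beta chains (HBB) lie in separate clusters on different chromosomes, and red cell precursors make both chains in balance. In the sheep fetus a fetal beta chain is made, which the adult chain replaces around birth. Globin mRNA in a piece of heart comes mainly from young red cells in the blood that the tissue holds, since mature mammalian red cells have no nucleus. In bulk tissue, fewer cells of a type and less RNA per cell cannot be told apart.

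Probe sequences are shown because they bear on what a member can report. Stop codons of the 3 sense frames are in capitals, 5′ to 3′.
HBB probe A_70_P051261: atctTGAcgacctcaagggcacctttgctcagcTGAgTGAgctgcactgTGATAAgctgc
Probe listed as HBA1, A_70_P037481: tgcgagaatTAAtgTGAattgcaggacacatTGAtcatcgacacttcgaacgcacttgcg
The HBB probe has a sense frame without a stop codon, the one that starts at base 3. The other HBB probe, A_70_P061046, whose sequence is not shown, has 3 stop codons and none in that frame. In contrast, A_70_P037481 has 1 stop codon in each of the 3 frames, so none of its frames is open. An untranslated stretch of an mRNA can have this too, so the stop codons alone do not settle what the probe reports. From general knowledge, and with no file to match it against, its sequence is that of a short ribosomal RNA of the large ribosomal subunit, which encodes no protein. The label HBA1 is not borne out by the files, which give only the name of a cDNA fragment. A_70_P037481 is therefore called the probe listed as HBA1.

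The files give A_70_P051261 the transcripts of 2 genes, HBB and HBBC, a beta chain gene of the same cluster, so these cannot be told apart on it. In the sheep reference table (assembly ARS-UI_Ramb_v3.0), HBB lies at chr15:48036944-48038412 and HBBC at chr15:47990592-47992155, with the embryonic gene HBE1 at chr15:47967474-47969262. The build behind the array design is not given in the sources used here. A_70_P061046 was designed on a cDNA fragment from fracture callus and is named HBB in the files. No member shared a run of 14 bases with another probe on the same strand.

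HBB was bright in every group, and its level differed between lambs far more than between groups. On A_70_P051261 the LV of Control lambs ranged from 11.45 to 16.24 (median 14.29, mean 13.94 ± 1.81, SD, n = 8), in normalized log2 intensity as for all levels given here. The LV of CORT lambs ranged from 12.13 to 15.83 (median 14.41, mean 14.18 ± 1.21, SD, n = 8). All 8 CORT arrays lay within the range of the Control arrays. From the dimmest to the brightest LV array, Control replicates 2 and 8, the intensity of HBB rose 27.7-fold.

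The IVS spanned a wider range. Its Control arrays ran from 9.78 to 15.81 (median 13.80, mean 13.22 ± 2.26, SD, n = 8), and Control replicates 1 and 3, at 10.18 and 9.78, stood below all other IVS arrays. Its CORT arrays ran from 11.93 to 14.82 (median 13.37, mean 13.52 ± 0.99, SD, n = 8), again all within the Control range. The dimmest and the brightest IVS array, Control replicates 3 and 8, differed 65.1-fold.

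The other HBB probe gave the same picture. A_70_P061046 ranged from 10.92 to 15.18 in the LV of Control lambs (median 12.71, mean 12.93 ± 1.67, SD, n = 8) and from 11.47 to 15.05 in CORT lambs (median 13.57, mean 13.42 ± 1.19, SD, n = 8). In the IVS it ranged from 9.18 to 15.23 in Control lambs (median 12.98, mean 12.67 ± 2.15, SD, n = 8) and from 11.34 to 15.26 in CORT lambs (median 12.84, mean 13.21 ± 1.30, SD, n = 8). Its lowest and highest arrays were those of A_70_P051261 in each of the 4 groups.

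In the LV, the probe listed as HBA1 was lower in CORT lambs, the contrast for which it was listed. Its LV values ranged from 10.16 to 12.60 in Control lambs (median 10.75, mean 11.05 ± 0.77, SD, n = 8) and from 8.89 to 11.33 in CORT lambs (median 9.94, mean 9.99 ± 0.90, SD, n = 8). The groups overlapped: 6 of 8 CORT arrays lay below the Control mean and 3 of 8 within the Control range. Control replicate 2, the brightest array for this probe, was the dimmest LV array for both HBB probes.

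In the IVS its values ranged from 7.69 to 11.28 in Control lambs (median 10.65, mean 9.92 ± 1.37, SD, n = 8) and from 8.20 to 11.82 in CORT lambs (median 10.27, mean 10.35 ± 1.22, SD, n = 8). Control replicates 1, 2 and 3, at 7.69, 8.68 and 8.62, stood apart below the other Control arrays. All 3 members passed the brightness limit and were well above background on every array, and none of their spots was saturated.

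**Figure D1:**
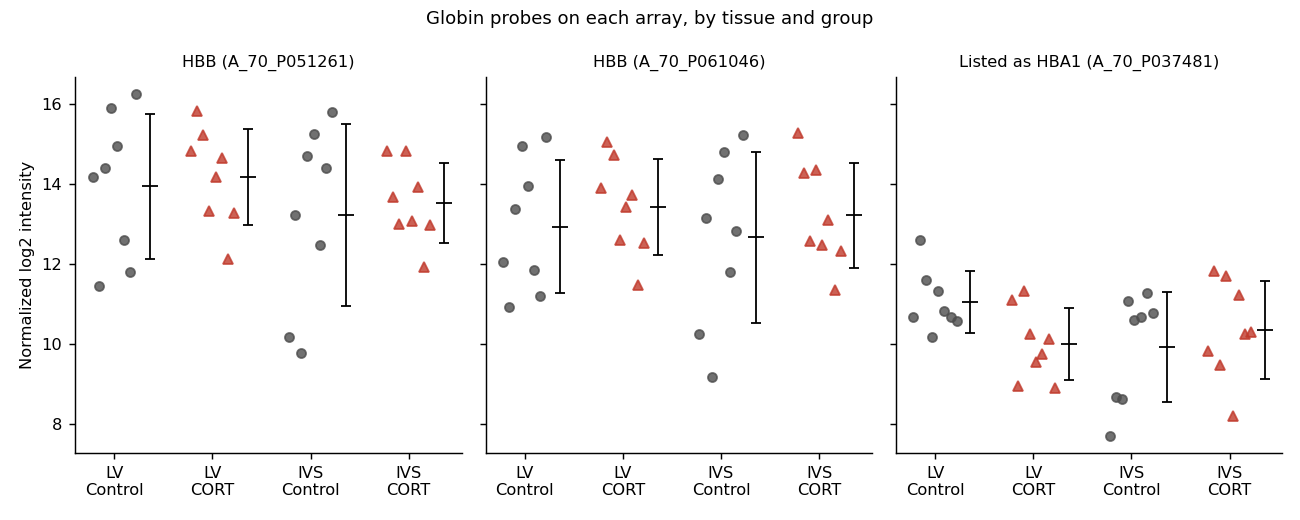
Normalized log2 intensity (vertical axis) of both HBB probes and the probe listed as HBA1 on each array. Arrays are in the order of the replicate numbers within the 4 groups, and bars show the mean and SD of 8 arrays. HBB spans 11.45 to 16.24 in the LV and 9.78 to 15.81 in the IVS on A_70_P051261, and the CORT arrays lie within the spread of the Control arrays, while the probe listed as HBA1 lies lower in LV CORT than in LV Control.

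To set the tissues side by side, all 32 arrays were normalized together. On A_70_P051261 the order of the group means was LV CORT (14.19), LV Control (13.96), IVS CORT (13.49) and IVS Control (13.20). On A_70_P061046 it was LV CORT (13.46), IVS CORT (13.18), LV Control (12.98) and IVS Control (12.62). For HBB, all neighbours in these orders differed by less than the SD of either group. For the probe listed as HBA1 the order was LV Control (11.14), IVS CORT (10.26), LV CORT (10.09) and IVS Control (9.84). The gap of 0.88 below LV Control was larger than that group's SD of 0.76 and smaller than the SD of 1.22 of IVS CORT, and the other gaps were within the SDs.

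The question of the study was what raised maternal cortisol does to the heart of the lamb after birth. In the LV, HBB was 0.23 higher in CORT than in Control lambs on A_70_P051261 (log2 difference, SE 0.70) and 0.49 higher on A_70_P061046 (SE 0.66). Both differences were smaller than their SE. A_70_P037481 was lower by a log2 difference of -1.06 (SE 0.38), a 2.09-fold lower level in CORT lambs. These values come from limma, fitted to the 11035 probes past the brightness limit, where an unadjusted p under 0.05 was reached by 3.98% (1.77% up and 2.21% down in CORT lambs) and an adjusted p under 0.05 by none.

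In the IVS, whose arrays did not enter the contrast for which A_70_P037481 was listed, none of the 3 members passed the test between the groups. HBB was 0.30 higher in CORT lambs on A_70_P051261 (SE 0.80, 95% interval -1.39 to 1.99, limma p = 0.712, adjusted p = 0.991, exact permutation p = 0.731). It was 0.55 higher on A_70_P061046 (SE 0.81, 95% interval -1.17 to 2.26, limma p = 0.509, adjusted p = 0.989, exact permutation p = 0.546). The intervals include a 2-fold change in either direction, so a change of that size is within the error of these arrays.

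The probe listed as HBA1, lower in the LV of CORT lambs, was 0.42 higher in their IVS (SE 0.59, 95% interval -0.83 to 1.68, limma p = 0.486, adjusted p = 0.989, exact permutation p = 0.517). Whether its difference is unlike that in the LV was not tested, since the LV values chose the probe. Thus 0 of 3 members passed an unadjusted p under 0.05 by either test in the IVS, where 3.74% of 11191 probes did so in limma (1.46% higher, 2.28% lower in CORT lambs). All tests are two-sided, and the exact test runs over the 12870 ways to assign 8 of 16 arrays.

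The direction for HBB turned with single lambs on A_70_P051261 and with the slide on both probes. Without Control replicate 2 the LV difference of A_70_P051261 was -0.12, without Control replicate 7 it was -0.07, without CORT replicate 2 it was -0.0022, and without Control replicate 8 it was 0.56. In the IVS it was -0.14 without Control replicate 1, -0.19 without Control replicate 3 and 0.67 without Control replicate 8. A_70_P061046 stayed above 0 with any single array left out, between 0.20 and 0.81 in the LV and between 0.05 and 0.91 in the IVS. With arrays weighted by quality, the differences were -0.41 and -0.13 in the LV for A_70_P051261 and A_70_P061046, and -0.31 and -0.15 in the IVS. A_70_P037481 also turned to -0.23 there in the IVS. In the LV it lay between -1.25 and -0.84 with any single array left out. The LV arrays chose this probe, so that range describes them and is no support for the difference.

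Arrays were printed in sets on slides, and each slide held both groups. Within the LV slides the HBB differences on A_70_P051261 were 0.81 on slide 1 and -0.34 on slide 2, with 4 arrays per group on each, and 1.24 and -0.26 on A_70_P061046. For the probe listed as HBA1 they were -0.85 and -1.27, below 0 on both, in the arrays for whose difference it was listed. Within the IVS slides, A_70_P051261 differed by 2.54, 0.66 and -1.25 on slides 3, 4 and 5, and the probe listed as HBA1 by 2.64, 0.48 and -0.92, so that the sign turned between slides for both. These IVS slides held 2 Control and 2 CORT, 3 and 2, and 3 and 4 arrays.

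**Figure D2:**
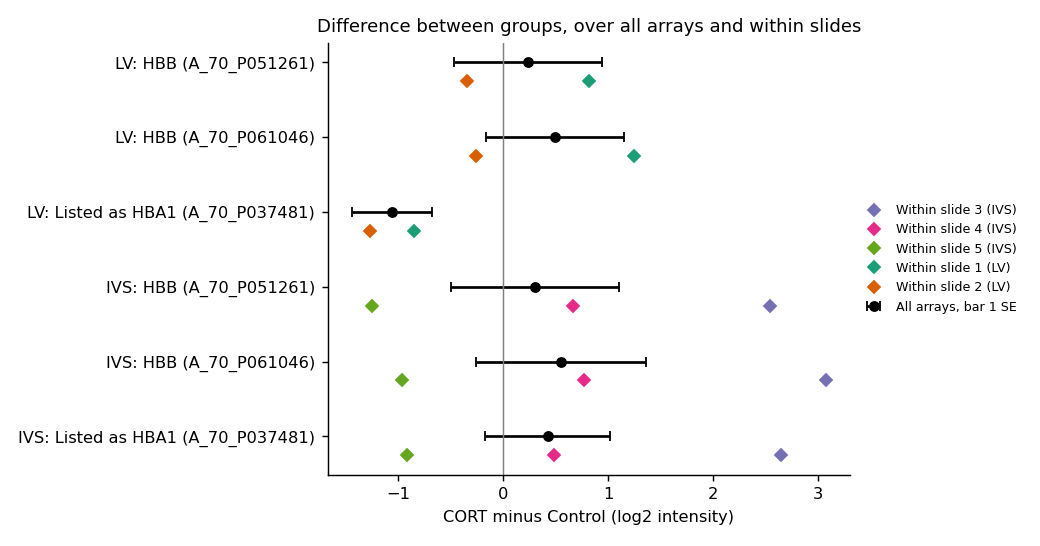
Difference between CORT and Control in log2 intensity (horizontal axis) for each probe and tissue, over all arrays (black, bar 1 SE) and within each slide (diamonds). The HBB differences lie on both sides of 0 within slides. The probe listed as HBA1 lies at -0.85 and -1.27 on the LV slides, whose arrays chose it.

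Between the tissues, no difference of HBB passed the test in a fit that treats all arrays as separate samples. In Control lambs the IVS minus LV difference was -0.76 on A_70_P051261 (SE 0.79, limma adjusted p = 0.614) and -0.36 on A_70_P061046 (SE 0.77, limma adjusted p = 0.832). In CORT lambs it was -0.70 (SE 0.79, limma adjusted p = 0.798) and -0.29 (SE 0.77, limma adjusted p = 0.937). The share of probes past an adjusted p under 0.05 was 5.1% of 11777 in Control lambs and 0.476% in CORT lambs, and neither HBB probe was among them. A_70_P037481 differed by -1.30 in Control lambs (SE 0.52) and 0.18 in CORT lambs (SE 0.52), given with no test because the LV arrays chose it. The tissues lay on different slides, so slide and tissue cannot be told apart, and the labels do not say which LV and IVS arrays share a heart.

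The spread of HBB between lambs was among the widest on the array. Within groups the pooled SD in the LV was 1.54 on A_70_P051261 and 1.45 on A_70_P061046, ranks 12 and 15 of 11035 probes, where the median probe had 0.151. In the IVS it was 1.75 and 1.78, ranks 15 and 12 of 11191, where the median probe had 0.227. A_70_P037481 had an SD of 0.84 in the LV (rank 69) and 1.30 in the IVS (rank 45). With the scanner's processed signal, where the median LV probe had an SD of 0.294, the LV ranks were 69 and 85 of 12837 for HBB and 565 for A_70_P037481. Myoglobin (MB), the oxygen-binding globin of heart muscle itself, had SDs of 0.15 and 0.20 on its probes in the LV and 0.28 and 0.26 in the IVS. Its group means lay between 17.92 and 18.31, near the top of the intensity scale, where quantile normalization can narrow the spread. The part of this in its SDs was not tested. HBB values were more spread in Control than in CORT lambs in both tissues, on both probes, a difference that was not tested.

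**Figure D3:**
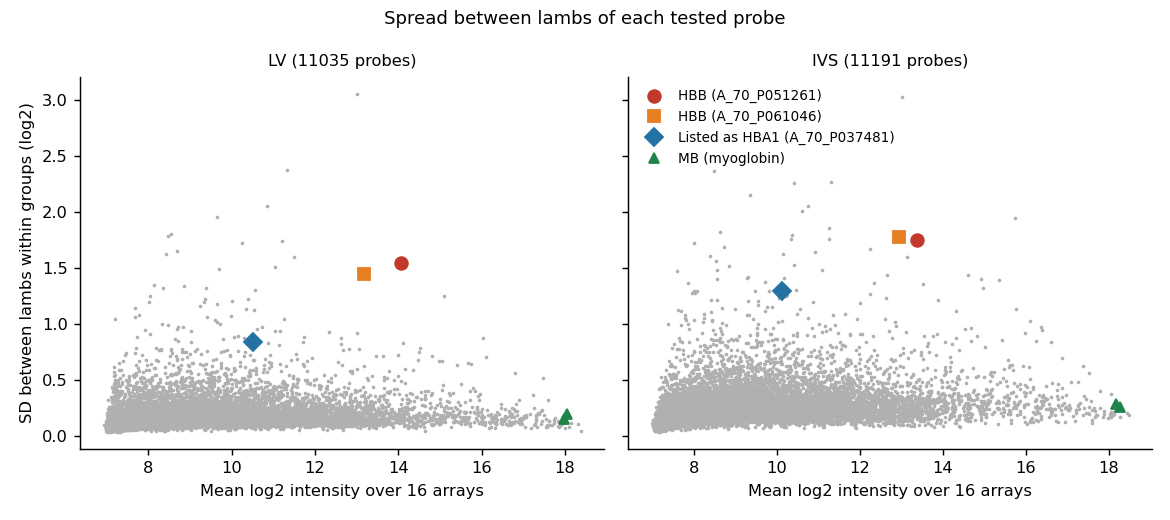
Within-group SD between lambs (vertical axis, log2) against the mean log2 intensity of 16 arrays (horizontal axis) for every tested probe (grey). Both HBB probes, the probe listed as HBA1 and myoglobin are marked. Both HBB probes lie far above the bulk of probes of like brightness, with SDs of 1.54 and 1.45 in the LV and 1.75 and 1.78 in the IVS, and myoglobin lies within the bulk.

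The HBB probes rose and fell together from lamb to lamb. Over deviations from the group means, A_70_P051261 and A_70_P061046 correlated with r = 0.973 in the LV (rho = 0.985, n = 16) and r = 0.958 in the IVS (rho = 0.968, n = 16). The permutation p was 1e-05 for each, the smallest that the resampling can give, and 0.00016 after adjustment over the 32 relations computed. Without the 2 lambs farthest from the median, r was 0.967 and 0.929. Within groups r lay between 0.927 (IVS CORT) and 0.993 (LV CORT), and on the slides with at least 6 arrays it was 0.946, 0.996 and 0.974.

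In the LV no relation of the probe listed as HBA1 to HBB passed the test, where r with the mean of the HBB probes was -0.22 (rho = -0.23, permutation p = 0.418 and 0.395, adjusted p = 0.557 and 0.602, n = 16). In the IVS r was 0.62 (rho = 0.55, permutation p = 0.0104 and 0.0307, adjusted p = 0.030 and 0.082, n = 16), and 0.42 without the 2 farthest lambs. Of the IVS slides, only slide 5 held 6 or more arrays, and r was 0.43 there (exact p = 0.308, n = 7). The 2 farthest lambs were Control replicates 1 and 3, dim for HBB and for this probe. Within IVS Control r was 0.75 and fell to 0.27 without the 2 farthest lambs of that group. Within IVS CORT r was 0.40 (exact p = 0.329, n = 8) and rose to 0.80 without the 2 farthest. In the IVS this probe was also lower on arrays of higher median spot intensity (r = -0.59, rho = -0.56, permutation p = 0.013 and 0.0269, adjusted p = 0.035 and 0.078, -0.69 without the 2 farthest, n = 16). For the mean of the HBB probes, r with median spot intensity was -0.47 in the IVS (rho = -0.50, permutation p = 0.0651 and 0.051, adjusted p = 0.149 and 0.126, n = 16). In the LV it was 0.30 (rho = 0.17, permutation p = 0.251 and 0.518, adjusted p = 0.402 and 0.691, n = 16). The part of overall brightness in these results was not tested.

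**Figure D4:**
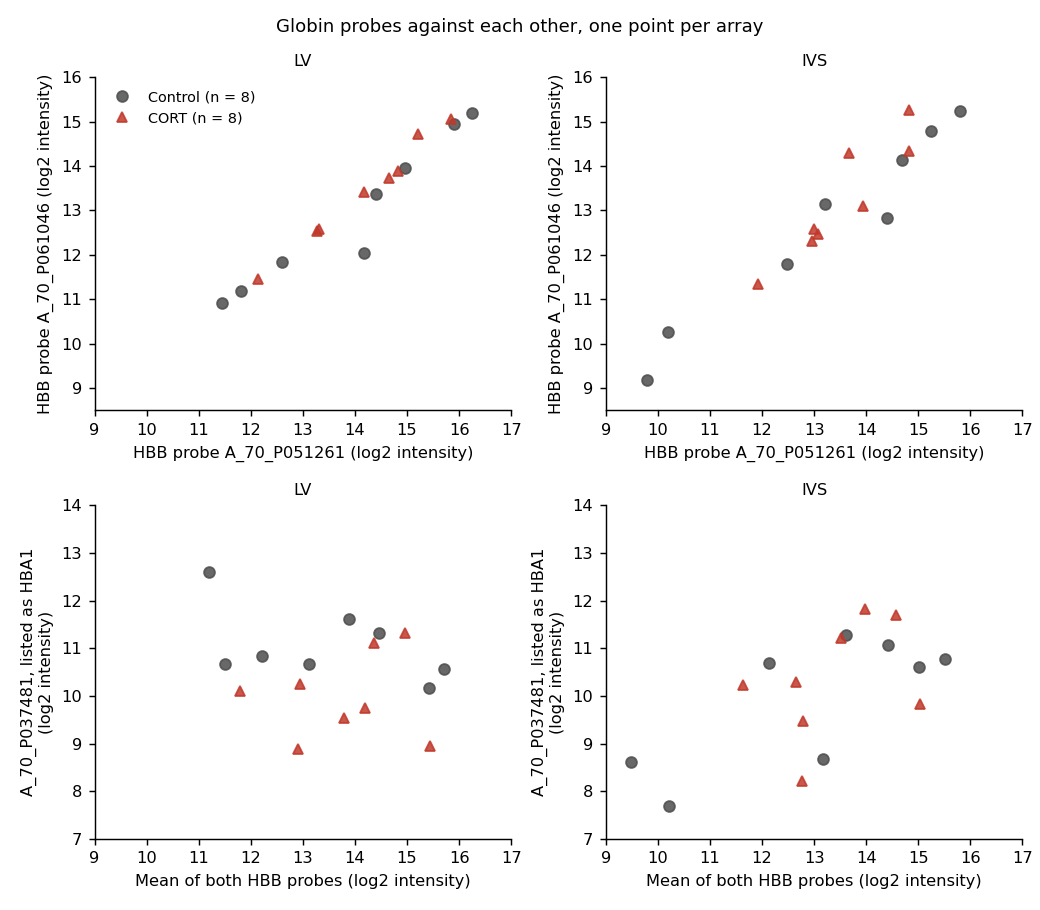
Log2 intensity of the HBB probes against each other (upper panels) and of the probe listed as HBA1 against the mean of both HBB probes (lower panels), 1 point per array, in the LV and IVS. The HBB probes fall along a line (r = 0.973 and 0.958), while the probe listed as HBA1 is scattered in the LV (r = -0.22) and low in the IVS arrays of lowest HBB.

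Myoglobin moved against HBB in the IVS. Its brighter probe, A_70_P029987, correlated with the mean of the HBB probes at r = -0.66 (rho = -0.70, permutation p = 0.00335 and 0.00323, adjusted p = 0.011 and 0.010, n = 16) and at -0.63 without the 2 farthest lambs. Within groups r was -0.66 in Control and -0.75 in CORT lambs, and on slide 5 it was -0.83 with a rho of -0.41. In the LV the relation over all arrays did not pass the test, with r = -0.32 (rho = -0.35, permutation p = 0.229 and 0.178, adjusted p = 0.386 and 0.300, n = 16). Within its groups r was -0.12 in Control (rho = -0.11) and -0.79 in CORT lambs (rho = -0.78), a difference that was not tested. AHSP, the chaperone of free alpha chains in red cell precursors, showed no relation to HBB that passed the test (r = 0.16 in the LV, adjusted permutation p = 0.699, and 0.10 in the IVS, adjusted permutation p = 0.844, n = 16 each), but it lay close to the brightness limit.

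The fetal beta chain was near background in most lambs. A_70_P022102, described in the files as the fetal beta subunit and no member by gene name, passed the brightness limit on only 3 LV and 4 IVS arrays and was therefore not fitted. In the LV it was well above background on 4 of 8 Control and 0 of 8 CORT arrays (two-sided Fisher's exact p = 0.0769). In the IVS it was so on 3 of 8 and 1 of 8 (two-sided Fisher's exact p = 0.569). This call is made array by array and lies at the floor here. LV Control replicate 6 was called at 6.96, and LV CORT replicate 6 was not at 7.10. The latter array had the lowest share of probes well above background, 59.7%. How many of all probes show such a split was not counted. The brightest array of A_70_P022102 in both tissues was Control replicate 8, at 8.09 in the LV and 8.14 in the IVS. That array was also the brightest for A_70_P051261.

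Few other genes of red cells and of heme could be tested, since most probes carry no gene name, so the lists are covered only in part. Of 23 genes of heme synthesis and iron supply, 5 are named in the files and tested. FTH1, the heavy chain of the iron store ferritin, was lower in the LV of CORT lambs on its brightest probe by -0.13 (SE 0.06, limma unadjusted p = 0.0473, adjusted p = 0.998) and 0.04 higher in the IVS (SE 0.09, limma adjusted p = 0.991). It was the 1 of 5 to pass in the LV, beside 2.21% of all probes lower there. FTH1 probes A_70_P039496, at -0.10 (SE 0.05), and A_70_P003062, at -0.14 (SE 0.10), did not pass in the LV. In the IVS they differed in direction, at 0.08 (SE 0.08) and -0.14 (SE 0.11). UROD, an enzyme of heme synthesis, SLC25A37 and SLC25A38, mitochondrial carriers that serve it, and TF, the iron carrier of plasma, lay between -0.05 and 0.03 in the LV and between -0.0039 and 0.11 in the IVS. None of these differences passed an unadjusted p under 0.05. The median of the list was -0.05 in the LV and 0.04 in the IVS, beside 0.00 and -0.01 over all probes.

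Of 20 regulators of red cell formation, 3 were tested: EPOR, the receptor of erythropoietin, KITLG, the ligand of the stem cell receptor KIT, and EPAS1, a hypoxia factor that drives the hormone's gene. Of 35 red cell proteins, 2 were tested: AHSP and the water channel AQP1. On their brightest probes, none of the 5 passed an unadjusted p under 0.05 in either tissue. Their differences lay between -0.09 and 0.06 in the LV and between -0.18 and 0.15 in the IVS. EPO, KIT, CA1 and PKLR were too dim to be tested in either tissue. No probe was named for any of the 12 genes that clear free hemoglobin and heme. CYGB, the cytoglobin of many tissues, differed by 0.05 in both tissues.

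The heart muscle label could be checked on few genes. Of 26 cardiomyocyte markers only TPM1 is named, and it was near the top of the intensity scale, between 17.97 and 18.18 in the 4 group means, as was myoglobin. Among 5 tested leukocyte markers 1 was lower in the LV of CORT lambs at an unadjusted p under 0.05, beside 2.21% of all probes, and none passed it in the IVS. It was CD14, a monocyte receptor, at -0.14 on its brighter probe (SE 0.06, limma adjusted p = 0.998), named after its value was seen. Its other probe, at -0.08 (SE 0.08), did not pass. On their brightest probes the 5 leukocyte markers lay between -0.38 and 0.18 in the LV and between -0.14 and 0.03 in the IVS. The tested platelet marker and the 4 (LV) or 5 (IVS) endothelial markers did not pass it.

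The named gene most like HBB across lambs was IGFBP2, a binding protein of insulin-like growth factors. Over 16 lambs, its probe A_70_P050967 had r = 0.81 in the LV and 0.90 in the IVS with the mean of the HBB probes, the highest lower value of 680 named genes. The arrays share their processing, and the gene was picked for this value, which is a description with no p. In Control lambs r was 0.94 in the LV and 0.97 in the IVS, and in CORT lambs 0.42 and 0.56. IGFBP2 ranged from 9.96 to 12.63 in the LV of Control lambs (SD 0.94) and from 11.42 to 12.12 in CORT lambs (SD 0.26). In the IVS the ranges were 9.86 to 12.78 (SD 1.1) and 11.54 to 12.28 (SD 0.27). Control lambs thus lay both below and above the narrow band of the CORT lambs, in both tissues. The difference between the groups in spread and in r was not tested, and a narrow range by itself lowers r. Both tissues were taken from the same groups of lambs, so they are no independent repeats. The mean of IGFBP2 was 0.33 higher in CORT lambs in the LV (SE 0.32, limma adjusted p = 0.998) and 0.34 in the IVS (SE 0.37, limma adjusted p = 0.989).

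**Figure D5:**
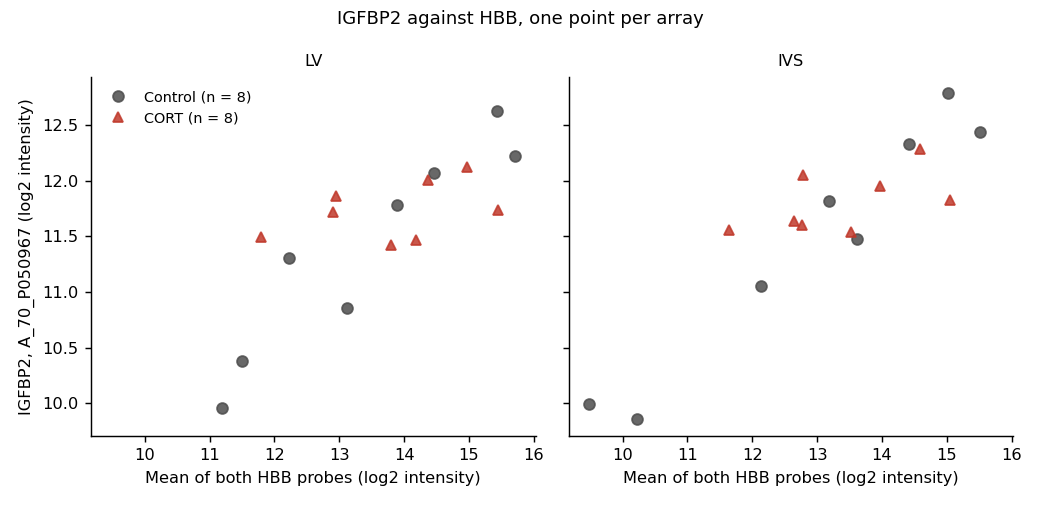
Log2 intensity of IGFBP2 (vertical axis, probe A_70_P050967) against the mean of both HBB probes (horizontal axis), 1 point per array, in the LV and IVS. Control lambs follow a line (r = 0.94 and 0.97), and CORT lambs stay between 11.42 and 12.28 on the IGFBP2 axis, a difference that was not tested.

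The next named genes were MX1, an interferon-induced antiviral protein (r = 0.70 in the LV and 0.64 in the IVS), H2AZ1, a histone variant (0.61 and 0.63), CCNA2, a cyclin of dividing cells (0.61 and 0.82), and WT1, a transcription factor (0.66 and 0.60). For WT1 r was 0.28 within LV CORT and -0.19 within IVS CORT, beside 0.82 within LV Control and 0.91 within IVS Control. The other 4 genes had r above 0.4 within each of the 4 groups. Over all 10877 probes compared, the 2 most like HBB were A_70_P040301 (0.88 and 0.87) and A_70_P060491 (0.82 and 0.86), which have no gene name here. For the probe listed as HBA1, the most like named gene was RPS26, a protein of the small ribosomal subunit (0.61 and 0.75), followed by MGLUR4 (0.66 and 0.57) and UROD (0.67 and 0.57). All of these were picked for their r, which is a description with no test.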

How the data were processed

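The authors deposited scanner output of 32 Agilent 1-colour sheep arrays (Feature Extraction 10.1.1.1, per the submitters' processing notes) holding every spot's intensity and local background. For each tissue they also deposited log2 values that they had corrected for background, quantile normalized and filtered. Mean intensity was corrected with normexp (offset 50) on the median local background and quantile normalized over the 16 arrays of a tissue, or over all 32 to compare tissues, with limma 3.58.1 in R 4.3.3 (statmod 1.5.0). Quantile normalization gives all arrays the same distribution, so a shift common to all probes would not be seen. Control and outlier spots were dropped. Probes entered the test where 8 or more arrays exceeded the 95th percentile of their negative controls by 10%. CORT and Control were compared by limma's moderated test (two-sided) with Benjamini-Hochberg adjustment over all tested probes, checked on simulated data. Correlations used 100000 resamples, or all orders for 8 or fewer arrays, in Python 3.11.15 with numpy 2.4.6 and scipy 1.17.1.

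Members and gene lists were chosen with earlier results of these data known. A gene of the red cell list is not reported here. Named are all members, globin, heme and red cell list genes (cell type markers by count, with CD14 and TPM1 named after their values were seen). Also named are the 5 named genes (brightest probe) with the highest lower r of both tissues with HBB. RPS26 and MGLUR4 were named for their lower r with the probe listed as HBA1, on any probe of a named gene. Probes were named from the array files and from a table of 35057 RefSeq sheep genes, which gave 1593 probes a name for 985 symbols. The probe listed as HBA1 was traced by matching the values of the deposited matrix to the study's list. No 2 of the 32 arrays held identical values. The LV arrays lay on 2 slides and the IVS arrays on 3. Median spot intensity was 131 to 332 per array, between 59.7 and 80.4% of probes were well above background, and the number of arrays limits the precision. Alternatives changed the background correction (offset 16, offset 0, none), signal, normalization, brightness limit, slide or replicate block and array weights, used the deposited matrix, or left out single arrays. The same replicate numbers did not pair all arrays: same-numbered LV and IVS arrays correlated above 0.1 in 7 of 16 cases. The same number was the best match in 6 of 16, all of them on LV slide 2 and IVS slide 5.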

Additional observations from a re-analysis of the deposited data

Results flagged for a closer look

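Among 36 sets of 8 arrays (the 3 members, the fetal beta chain and the 5 genes most like HBB, in the 4 groups), 4 held an array whose gap to the next, over the set's range, was above Dixon's 95% critical value. Chance gives about 1 such set in 20. For the fetal beta chain probe A_70_P022102, CORT replicate 6 stood above the other CORT arrays in both tissues, at 7.10 in the LV (next highest 6.82) and at 7.31 in the IVS (next highest 6.97), and of these only the IVS array was well above background. For MX1, LV CORT replicate 2 was at 13.38 (next highest 11.00) and IVS CORT replicate 1 at 13.31 (next highest 11.13). These are the arrays with the highest HBB of the CORT group in each tissue. No array of the 3 members stood apart in this sense.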

How the results depend on the processing

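In the IVS, weighting arrays by quality turned the differences of all 3 members: -0.31 for A_70_P051261, -0.15 for A_70_P061046 and -0.23 for A_70_P037481, none past the threshold; the cause was not tested. The other 11 alternatives kept their direction. Leaving out 1 array gave -0.19 to 0.67 for A_70_P051261, 0.05 to 0.91 for A_70_P061046 and 0.10 to 0.73 for A_70_P037481 in the IVS, and -0.12 to 0.56, 0.20 to 0.81 and -1.25 to -0.84 in the LV. Over the 12 other LV alternatives A_70_P037481 lay between -1.15 and -1.03. The LV arrays chose this probe, so its steadiness there is no support for the difference. The probes at an unadjusted p under 0.05 numbered 439 in the LV, 719 with arrays weighted by quality and 297 to 596 with 1 array left out. In the IVS they numbered 418, 860 with slide as a block, 631 with the replicate block and 229 to 813 with 1 array left out. The replicate block left every member's direction as it was, and the numbers are no pairing here: 3 of 8 same-numbered Control and CORT arrays correlated above 0.1 in the LV and 5 of 8 in the IVS. The tissue differences kept their direction, and those of HBB their side of an adjusted p under 0.05, under all alternatives run for them. The likeness of the members (Pearson r) kept its direction and its side of an unadjusted permutation p under 0.05. The pooled SDs of HBB lay between 1.46 and 1.56 in the LV and between 1.76 and 1.89 in the IVS. Those of A_70_P037481 lay between 0.87 and 0.93 in the LV and between 1.37 and 1.63 in the IVS. Their ranks fell with the processed signal. Arrays number 8 per group, and HBB varied so much between lambs that only large differences could pass.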

Other observations

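The LV and IVS arrays of a number need not be the same lamb. The members and the fetal beta chain probe were left out, and the deviations of 10772 probes from the group means were compared. The IVS array most like each LV array of the same treatment had the same number in 6 of 16 cases. The match was mutual in 15 of 16 cases, with r between 0.19 and 0.65. This was looked at after the data were seen, entered no fit and was not tested. HBB, left out of the matching, differed between the arrays so matched by a median of 0.39 on the log2 scale, and between arrays of the same number by 1.02. Genes that move with HBB, such as IGFBP2, stayed in the matching, so the HBB values are not independent of it. With all 32 arrays normalized together, HBB was lower in the IVS than in the matched LV array in 15 of 16 cases: 8 of 8 CORT (-1.11 to -0.28) and 7 of 8 Control (-1.89 to 0.42). The matches rest on the data and not on the labels, and tissue cannot be told apart from slide. For the probe listed as HBA1 these medians were 0.75 and 1.37. LV Control replicate 1 was most like IVS Control replicate 7, with the fetal beta chain probe at 7.66 and 7.88. LV CORT replicate 2 was most like IVS CORT replicate 1, the arrays of highest MX1 in either tissue. MX1 was itself among the probes that made the match.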
